A study of Mus musculus with 4 samples.

Results

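The serpins are a family of protease inhibitors, here the 58 genes whose name on the array was Serpin followed by a clade letter from a to i and a number, leaving out Serpinh1, among 24161 named genes on the array. They were read by 74 probes, and 37 of the genes had a probe bright enough to test, meaning that 1 of its channels lay well above background on 3 or 4 arrays. Serpins work as single-use traps. The protease cuts an exposed loop of the inhibitor, the loop folds into the body of the serpin, and the protease is left bound to it in a distorted, inactive form. Clades A, C, D, E, F, G and I hold mostly secreted inhibitors of the blood plasma and of the matrix around cells, and clade B holds the intracellular serpins, several of which protect cells from proteases of their own granules and lysosomes. In bone and teeth the family is known mainly through the plasminogen system, which Serpinb2 and Serpine2 hold in check among others, and through Serpinf1, whose loss in humans causes brittle bones.

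The study hybridised 4 two-colour arrays, each with 1 RNA labelled odontoblast, from dental pulp, in the Cy5 channel, and 1 RNA labelled osteoblast, from the calvaria, the bone of the skull vault, in the Cy3 channel. Both RNAs came from donor-matched mice of 2 weeks that carried enhanced green fluorescent protein under a 2.3 kb type I collagen promoter. Cells were freed by enzyme digestion and sorted for fluorescence. The strain, C57BL/6, was given for the odontoblast channel only. The sort takes any cell in which this promoter fragment is active, the number of animals behind each RNA is not stated, and the p-values reflect how far these 4 arrays differ, which may be partly technical. The dyes were not swapped, and all arrays shared 1 slide and 1 scan, so dye and cell type cannot be told apart.

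Before any serpin is described, the labels need a caution. Markers went against them. Of 5 odontoblast markers, 4 had a negative mean log2 ratio of Cy5 over Cy3, among them Dspp, the dentin phosphoprotein precursor, at -1.95, with adjusted p = 0.0602 by limma, and 1 (Wnt10a) was called higher in Cy3, at -5.91. All 7 osteoblast markers had a positive mean, and 3 were called higher in Cy5: Ifitm5 at 5.05, Pth1r at 4.74 and Col1a2 at 2.79. Among the uncalled ones, Sp7, at 0.015 ± 1.07, and Bglap, at 1.34 ± 1.97 (SD, n = 4), had arrays on both sides of 0. Their adjusted p were 0.989 and 0.392 by limma. Each serpin is therefore given by the dye channel and the label it carries. If the labels of the channels were exchanged, the ratios of Cy5 over Cy3 would stay, and the cell type on each side would turn. Ratios over all features correlated between arrays at 0.302 to 0.486, with array 3 the least like the others (0.302 to 0.357). Median signal over background was 7.10 to 8.21 in Cy5 and 10.9 to 16.0 in Cy3.

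In outline, 3 serpins differed between the channels. Serpinb2, the inhibitor of urokinase also called plasminogen activator inhibitor 2, was 30.7-fold lower in the Cy5 channel, labelled odontoblast, than in the Cy3 channel, labelled osteoblast. Serpinb1a and Serpinb1c, 2 mouse copies of the gene for the leukocyte elastase inhibitor, were 10.04-fold and 7.08-fold higher in Cy5. All 3 belong to clade B. They made up 8.11% of the 37 serpins tested, against 2.15% of 19762 named genes (Cy5 and Cy3 directions together, adjusted p under 0.05 by limma). Higher in Cy5 were 2 serpins, against 1.28% of all genes, and higher in Cy3 was 1, against 0.865%.

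The probes behind these calls are shown because Serpinb1a and Serpinb1c are close copies. The 2 probes are given whole, 5′ to 3′, with their longest common run in capitals.
Serpinb1a: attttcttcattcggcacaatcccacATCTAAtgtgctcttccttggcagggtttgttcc
Serpinb1c: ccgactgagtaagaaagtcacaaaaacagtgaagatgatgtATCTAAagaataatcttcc
That run was 6 bases long. Likeness between the probes cannot show whether either also binds the transcript of the other copy, which was not tested. The 2 calls may therefore not be separate. The Serpinb1a probe lay at chr13:32934693-32934752 and the Serpinb1c probe at chr13:32975867-32976102, both on the minus strand of mm9 per the array's own annotation, and the second one spans more than its 60 bases because it crosses an intron.
The Serpinb2 probe lay at chr1:109422046-109422105 on the plus strand, and its first 30 bases, which shared no run of 15 or more with the probe of another serpin, were these.
Serpinb2: catcataagtaagcatgcttacttacacac

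Serpinb2 had normalized log2 signals of 8.40, 8.17, 8.45 and 7.44 in the Cy5 channel, labelled odontoblast, on arrays 1 to 4, against 12.93, 12.95, 13.78 and 12.57 in the Cy3 channel, labelled osteoblast. The channels did not overlap, and the lowest Cy3 value lay above the highest Cy5 value by several log2 units. The log2 ratios of Cy5 over Cy3 were -4.53, -4.79, -5.33 and -5.13, with a mean of -4.94 ± 0.36 (SD, n = 4 arrays) and adjusted p = 0.00544 by limma. Both channels were well above background on all 4 arrays. Leaving out array 1 gave an adjusted p of 0.0511 and leaving out array 2 one of 0.0553, with mean ratios of -5.08 and -4.99. Serpinb2 is known as a product of activated macrophages and of keratinocytes, and marker lists of both were measured beside it. The macrophage and leukocyte markers were mixed. Of 10, 7 had a positive and 3 a negative mean ratio, and 2 (Laptm5 at 2.93 and Lyz2 at 4.42) were called, both higher in Cy5, against 1.28% of all genes. The 3 on the side of Serpinb2 were Aif1 at -0.74, Csf1r at -0.39, with channels that did not overlap, and Cd68 at -0.10, with adjusted p of 0.240, 0.285 and 0.841 by limma. The list's summed linear signal was 113207 to 196134 in Cy5 and 77969 to 107175 in Cy3, or 39882 to 128463 in Cy5 and 25805 to 32278 in Cy3 without its brightest member, Itgam, a sum added after seeing the data. Of 7 stratified epithelium markers, 3 had a positive and 4 a negative mean, and 0 were called by limma. The desmosome gene Dsp, at -4.02 with channels that did not overlap and adjusted p = 0.0809, and Perp, at -1.65 with adjusted p = 0.219, lay on the side of Serpinb2, and the keratins Krt5, Krt14, Krt15 and Krt17 lay between -0.14 and 0.09. The summed signal was 91454 to 104871 in Cy5 and 61965 to 87030 in Cy3, nearly all of it from Trp63, and without Trp63 it was 1941 to 2666 in Cy5 and 3877 to 8000 in Cy3, so that its direction turned. Of 7 dental epithelium markers tested, 2 enamel matrix genes (Odam at -5.00 and Ambn at -3.05) were called higher in Cy3, against 0.865% of all genes. The others were Enam at -1.58, Krt5 at -0.14, Krt14 at -0.10, Epcam at -0.03 and Amelx at 0.26, none of them called. That list's summed signal was 1909 to 2711 in Cy5 and 4877 to 11072 in Cy3, with no range in common, also without Krt14, its brightest member. The part of these cells in the Serpinb2 ratio was not tested.

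**Figure D1:**
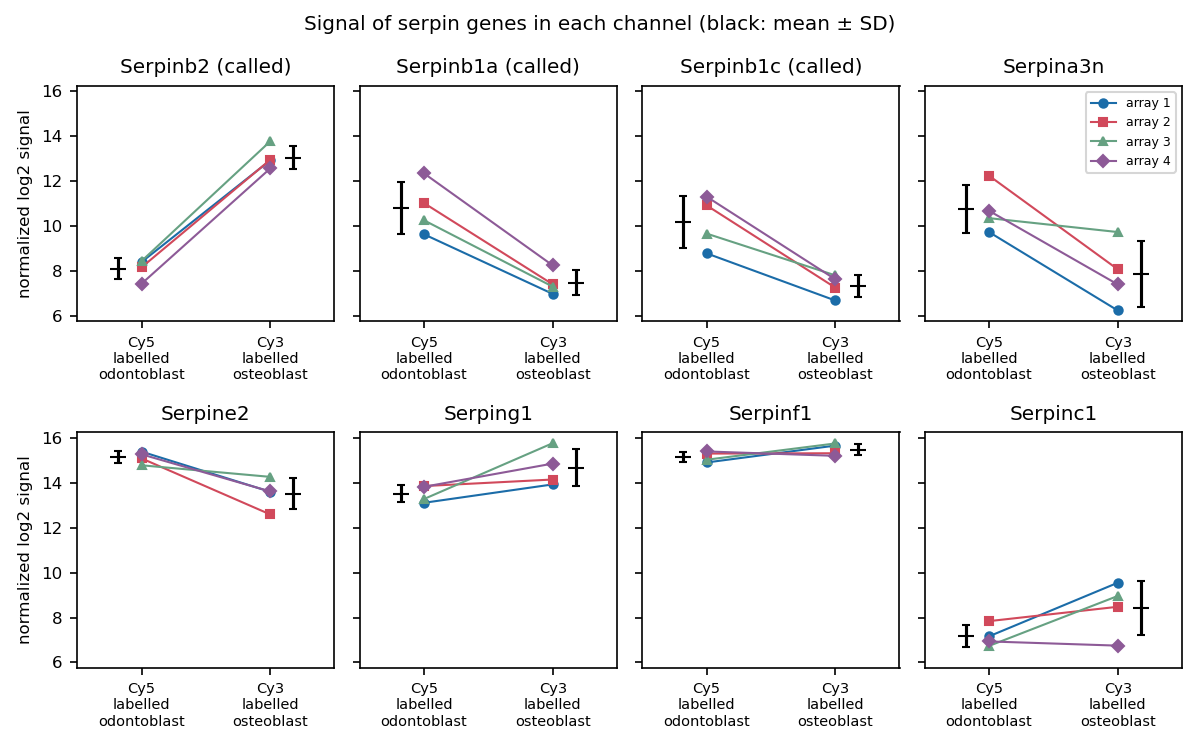
Normalized log2 signal (vertical axis) of 8 serpins in the Cy5 channel, labelled odontoblast, and in the Cy3 channel, labelled osteoblast, with 1 line per array and the mean ± SD of the 4 arrays in black. The lines of Serpinb2 all climb toward Cy3 and those of Serpinb1a and Serpinb1c all fall toward it, whereas the lines of Serpinf1 cross.

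Serpinb1a, an inhibitor of neutrophil elastase, cathepsin G and proteinase 3, had log2 signals of 9.64, 11.02, 10.26 and 12.35 in Cy5 and of 6.98, 7.41, 7.31 and 8.25 in Cy3. Again no Cy5 value fell among the Cy3 values. The ratios were 2.65, 3.61, 2.95 and 4.10, the mean was 3.33 ± 0.65 (SD, n = 4), and the adjusted p was 0.0159 by limma. The adjusted p was 0.0588 without array 1, 0.0820 without array 2 and 0.0745 without array 4, with means of 3.55, 3.23 and 3.07. Array 4 had the highest value of Serpinb1a in both channels.

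Serpinb1c lies next to Serpinb1a, and less is known of its product. Its log2 signals were 8.79, 10.92, 9.67 and 11.31 in Cy5 and 6.69, 7.27, 7.81 and 7.64 in Cy3, where it was well above background on 3 arrays. Its ratios of 2.10, 3.66, 1.86 and 3.68 had a mean of 2.82 ± 0.98 (SD, n = 4) and adjusted p = 0.0430 by limma, the weakest of the 3 calls. Each array that was left out ended the call, with adjusted p of 0.130 without array 1, 0.151 without array 2, 0.0605 without array 3 and 0.167 without array 4. In both copies arrays 2 and 4 gave the larger ratios and arrays 1 and 3 the smaller ones.

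The proteases that Serpinb1a inhibits gave no call. Elane, the gene of neutrophil elastase, had a mean ratio of -0.55, Ctsg, that of cathepsin G, -0.27, and Prtn3, that of proteinase 3, 0.20, with adjusted p of 0.179, 0.577 and 0.801 by limma. Neutrophil markers as a list were low. Of 6, 4 were tested and 0 called, Ltf and S100a8 were not well above background on enough arrays to be tested, and the summed signal was 767 to 958 in Cy5 and 896 to 2131 in Cy3. Among marker lists with calls toward Cy5, as for Serpinb1a, 6 of 9 tested interferon response genes were called, against 1.28% of all genes. Their summed signal was 60896 to 104726 in Cy5 and 3185 to 10947 in Cy3. The osteoblast list had 3 of 7 called, against the same 1.28%, and a summed signal of 404470 to 629887 in Cy5 and 56209 to 157147 in Cy3. The macrophage and leukocyte list, given above, had 2 of 10 called and members on both sides of 0. Their part in the ratios of Serpinb1a and Serpinb1c was not tested. In RNA of sorted populations, more cells of a type and more RNA per cell cannot be told apart.

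The other clade B genes gave no call. Clade B held 26 genes, of which 15 were tested, and the 12 without a call had mean log2 ratios of -0.69 to 0.47 and adjusted p of 0.350 to 0.893 by limma. Among them were Serpinb9, the inhibitor of granzyme B, at 0.21, and its mouse relatives Serpinb9c, Serpinb9e and Serpinb9f, at -0.69, -0.57 and -0.55. The 3 relatives had arrays on both sides of 0, and their SDs (0.93, 1.28 and 0.94) were larger than the size of their means.

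Serpinb6a, Serpinb6c and Serpinb6e are copies with like probes, which are not read here as separate genes because cross-binding was not tested. The Serpinb6a probe matched the Serpinb6c probe at 55 of 59 overlapping bases and the Serpinb6e probe at 43 of 55. In 30 aligned bases of each, with capitals where they differ, the Serpinb6c probe differed from that of Serpinb6a at 3 bases and the Serpinb6e probe at 5.
Serpinb6a: agtgaccttatccataaGtGCaatgGcaAT
Serpinb6c: agtgaccttatccataaGtGCaatgAcaGC
Serpinb6e: agtgaccttatccataaAtATaatgAcaGT
The probes lay on the minus strand of mm9 at chr13:34009796-34009855, chr13:33971686-33971745 and chr13:33924218-33924277. Their ratios on arrays 1 to 4 were -0.79, -0.33, 0.51 and -0.35 for Serpinb6a, -0.79, -0.09, 0.54 and -0.36 for Serpinb6c and -0.35, -0.36, 0.12 and -0.11 for Serpinb6e. All 3 were above 0 on array 3 only, and none passed the test. Over the family, 13 pairs of probes for different genes shared a run of 15 or more bases, 6 of them between probes that were kept, which touched 5 genes: these 3, Serpina3h and Serpina3i.

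Serpinb8, an inhibitor of furin-like and other proteases, had the brightest serpin probe, and its sequence needs showing. Bases 14 to 43 of the probe, which lay at chr1:109504865-109504924 on the plus strand of mm9, are made almost wholly of a TG repeat, in capitals.
Serpinb8: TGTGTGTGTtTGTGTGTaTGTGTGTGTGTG
A repeat of this kind (TG, GT, CA or AC in an unbroken run of at least 10 bases) stood in 1 of the 74 serpin probes and in 0.52% of the 55681 probes on the array, counting both strands. Serpinb8 had log2 signals of 16.84, 17.03 and 17.06 in Cy5 on arrays 1, 2 and 4 and of 16.66, 16.30 and 16.56 in Cy3, and its spot on array 3 was an outlier by the scanner software and was dropped. The mean ratio of 0.47 ± 0.28 (SD, n = 3) had adjusted p = 0.350 by limma. After centring each array on its median instead of loess it was 1.68, with adjusted p = 0.0277, whereas the software's processed signals gave 0.21 and the authors' deposited values gave 0.029, with adjusted p of 0.709 and 0.960. Outlier spots were not dropped from the deposited values. The 0.029 therefore includes array 3 and cannot be set directly beside the other means.

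**Figure D2:**
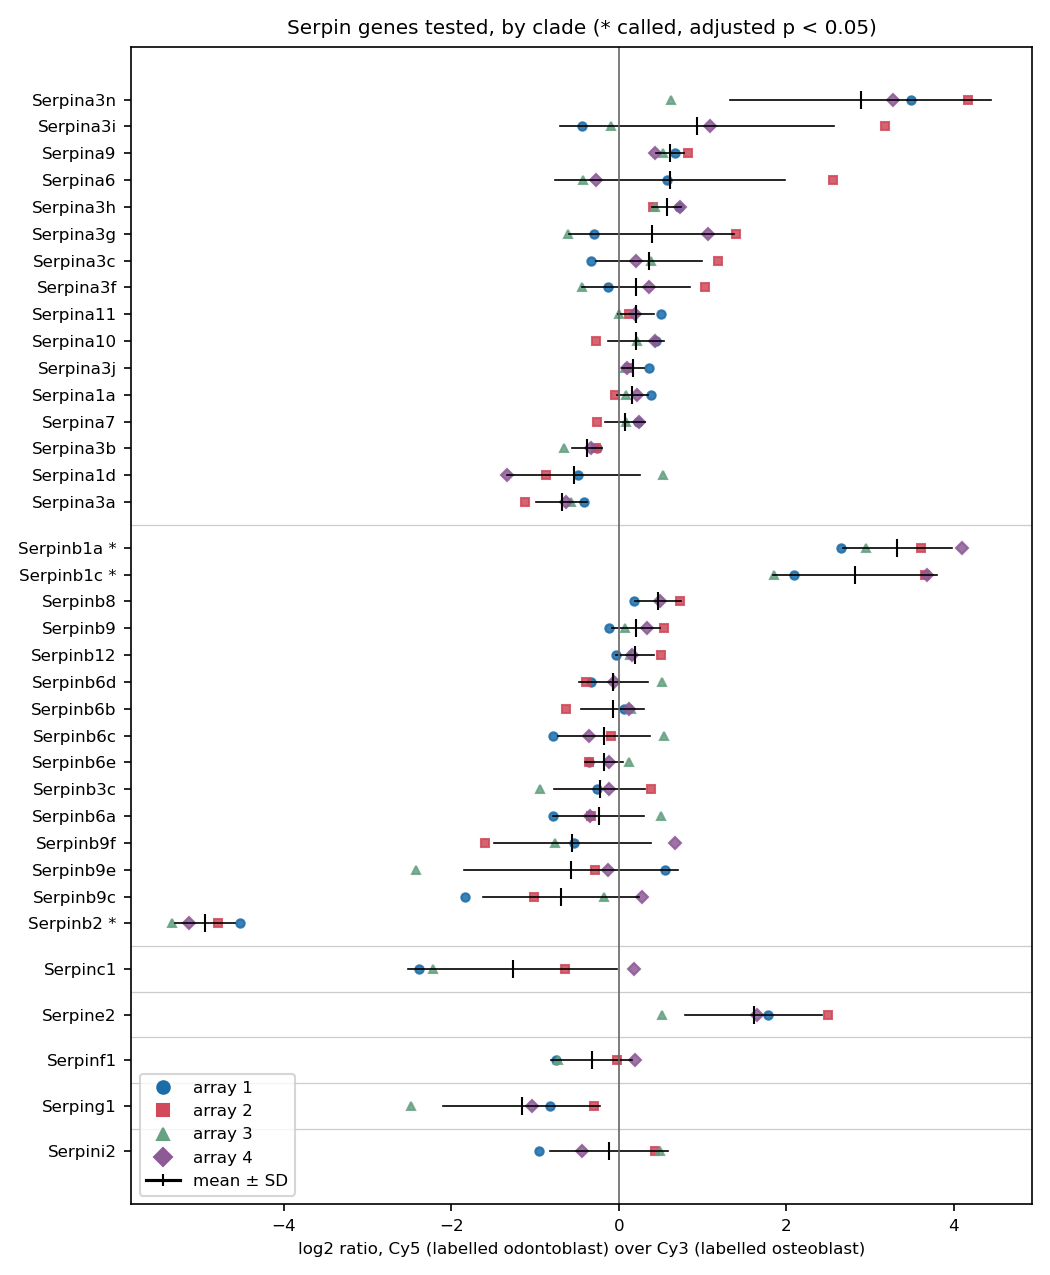
Log2 ratio of Cy5 (labelled odontoblast) over Cy3 (labelled osteoblast) of 36 of the 37 serpins tested, 1 symbol per array, grouped by clade, with mean ± SD in black and an asterisk at the 3 called genes. Serpinb2 lies alone at the left, Serpinb1a and Serpinb1c lie wholly to the right of 0, and in Serpina3n and Serpine2 the array 3 symbol lies nearest to 0.

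The secreted serpins of clades E, F and G included bright probes, and none of those described here was called. Serpine2, protease nexin 1, inhibits thrombin, urokinase and plasmin at the cell surface. Its log2 signals were 15.39, 15.09, 14.78 and 15.27 in Cy5 and 13.60, 12.59, 14.26 and 13.62 in Cy3, so the channels did not overlap. The ratios were 1.79, 2.49, 0.52 and 1.65, positive on all arrays but unequal, and the mean of 1.61 ± 0.82 (SD, n = 4) had adjusted p = 0.103 by limma. With median centring in place of loess the mean was 2.28 and the adjusted p 0.0226. That centring placed the median of all genes at 0.20 instead of 0.01. The Serpine2 probe crosses an intron, at chr1:79793476-79796093 on the minus strand of mm9, by the array's annotation.
Serpine2: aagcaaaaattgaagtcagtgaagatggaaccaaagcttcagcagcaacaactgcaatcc

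The plasminogen activators that Serpinb2 and Serpine2 act on are the products of Plau (urokinase) and Plat (tissue plasminogen activator), and neither was called. Plau had log2 ratios of -2.83, 1.99, 3.37 and -1.68 on arrays 1 to 4, with a mean of 0.21 ± 2.94 (SD, n = 4) and adjusted p = 0.933 by limma. Plat was at -1.23, 1.77, 1.65 and 0.89, with adjusted p = 0.482. Both had array 1 lowest and arrays 2 and 3 highest.

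Of the 15 genes of the plasminogen system outside the family, 13 were tested and 0 called by limma, against 2.15% of all genes. Their median ratio was 0.21, against 0.01 for all genes, with 8 positive and 5 negative. Thbd, the thrombin receptor thrombomodulin, had the highest mean, 1.96 ± 1.92 (SD, n = 4), carried by 4.50 on array 3, with adjusted p = 0.241. Plaur, the urokinase receptor, had the lowest, -0.89 ± 1.32, with adjusted p = 0.406. Lrp2, an uptake receptor for serpin and protease complexes, and Vtn, the adhesive plasma and matrix protein vitronectin, were too dim to test. Serpinb2 was called, while Plau, its target, had arrays on both sides of 0.

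**Figure D3:**
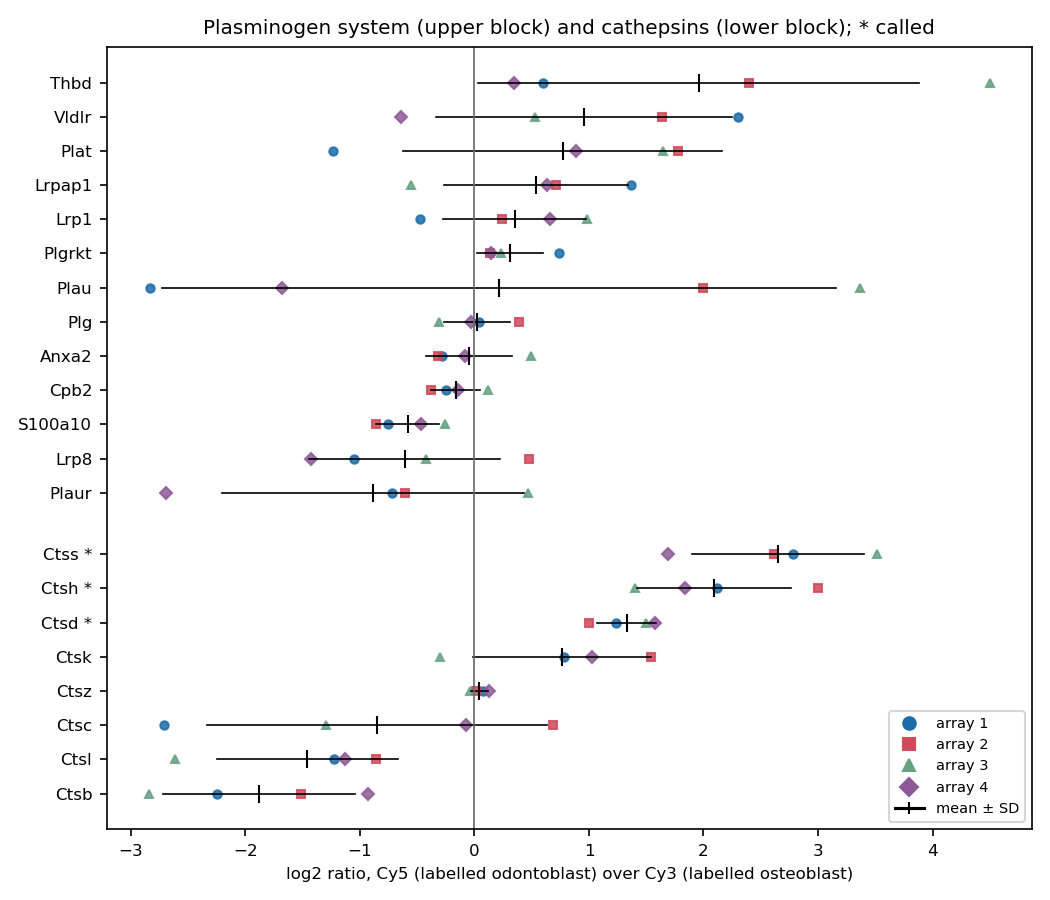
Log2 ratio of Cy5 (labelled odontoblast) over Cy3 (labelled osteoblast) on each array for the 13 tested plasminogen system genes (upper block) and the 8 cathepsins (lower block), with mean ± SD in black and an asterisk at called genes. Plau spreads from -2.83 to 3.37, and the 3 called genes, Ctss, Ctsh and Ctsd, are cathepsins on the Cy5 side.

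Serping1, the C1 inhibitor, which blocks the first proteases of complement and the contact proteases of plasma, had log2 signals of 13.11, 13.86, 13.28 and 13.82 in Cy5 and of 13.93, 14.15, 15.76 and 14.86 in Cy3. The channels did not overlap, by a narrow margin. The ratios of -0.82, -0.29, -2.48 and -1.03 had a mean of -1.16 ± 0.94 (SD, n = 4) and adjusted p = 0.205 by limma, and a second probe gave a mean of -1.21. Its targets C1ra and C1s1, the 2 proteases of the first complement complex, had means of 0.59 and -0.06, with adjusted p of 0.431 and 0.956.

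Serpinf1, pigment epithelium-derived factor, is a secreted serpin that does not inhibit proteases and is needed for normal bone mineral. Its log2 signals lay close together, at 14.91, 15.30, 15.03 and 15.40 in Cy5 and 15.66, 15.32, 15.75 and 15.20 in Cy3, and the channels overlapped. The mean ratio was -0.32 ± 0.49 (SD, n = 4), with adjusted p = 0.503 by limma, and a second probe gave -0.69. The sign of the first turned with median centring, to 0.56. Serpinf2, the inhibitor of plasmin, was too dim to test.

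Clade A held 23 genes, of which 16 were tested and 0 called by limma, with 13 positive and 3 negative means and a median of 0.21. The positive ones include Serpina1a, Serpina3c, Serpina3j and Serpina7, which were bright enough to test through Cy5 alone. Their Cy3 signal was well above background on 1 array each. The part of this filter in the lean of the clade was not tested. Over the whole family 19 means were positive and 18 negative, or 51.4% positive, against 50.6% of all genes. Serpina3n, one of the mouse copies of antichymotrypsin and an inhibitor of cathepsin G and granzyme B, had log2 signals of 9.74, 12.24, 10.36 and 10.68 in Cy5 and of 6.25, 8.08, 9.74 and 7.41 in Cy3, where it was well above background on 3 arrays. The channels overlapped narrowly, since the Cy3 value of array 3 equalled the Cy5 value of array 1 at this precision. Ratios of 3.49, 4.16, 0.62 and 3.28 had a mean of 2.89 ± 1.56 (SD, n = 4) and adjusted p = 0.0982 by limma. Without array 3 the mean was 3.64 and the adjusted p 0.0327. Median centring also gave a call, with a mean of 3.09 and adjusted p = 0.0424.

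The next largest clade A means were small or rested on 1 array. Serpina3i averaged 0.93 ± 1.63 (SD, n = 4), of which array 2 gave 3.18, and its second probe averaged 0.13. Serpina6, the carrier of corticosteroids in blood, averaged 0.61 ± 1.37, of which array 2 gave 2.56, and its second probe averaged -0.08. Without array 2 the first probe of Serpina6 averaged -0.043. Serpina3h, another antichymotrypsin copy, had ratios of 0.72, 0.41, 0.44 and 0.73, and Serpina9, a serpin known from germinal centre B cells, averaged 0.61 ± 0.17. These 2 and Serpina3a, at -0.68 ± 0.31, kept apart in their channels, with adjusted p of 0.174, 0.158 and 0.164 by limma. Serpina10, an inhibitor of clotting factor X in its active form, was among the 8 brightest serpins, counting 1 probe per gene. Its ratios of 0.45, -0.28, 0.22 and 0.43 on arrays 1 to 4 averaged 0.21 ± 0.34, with adjusted p = 0.610 by limma. A second, dimmer probe of Serpina10 averaged -0.10.

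Serpinc1, antithrombin, the main inhibitor of thrombin, was the 1 gene of clade C. It had log2 signals of 7.17, 7.84, 6.74 and 6.94 in Cy5 and of 9.55, 8.48, 8.96 and 6.75 in Cy3, with array 4 alone on the Cy5 side. Its mean ratio was -1.26 ± 1.25 (SD, n = 4), with adjusted p = 0.253 by limma. Serpind1, heparin cofactor II and the 1 gene of clade D, was too dim to test. In clade I, Serpini1, neuroserpin, was too dim as well, and Serpini2 averaged -0.12 ± 0.70. Hepatocyte and serum protein markers, which would bring several of these plasma serpins with them, gave 0 calls among 4 tested, Alb and Ttr were too dim to test, and Serpina1a, itself on that list, averaged 0.16.

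The genes of clades A and B sit in clusters, and the called genes had uncalled neighbours. On chromosome 1, 11 clade B genes spanned 726.3 kb. Of these, 4 were tested, Serpinb2 was called, and the other 3 had means of -0.23 to 0.47. Serpinb7, 73.0 kb away from Serpinb2, was too dim to test, and Serpinb8 lay 82.8 kb to its other side. On chromosome 13, 15 clade B genes spanned 1075.1 kb and 11 were tested. Serpinb1a and Serpinb1c, 41.3 kb apart at one end, were called, and the 9 others tested had means of -0.69 to 0.21. Serpinb1b, 251.3 kb from Serpinb1a, was too dim to test. On chromosome 12, 22 clade A genes spanned 797.0 kb, with Serpina3n at one end, and 15 were tested. Distances are between probe positions on mm9.

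**Figure D4:**
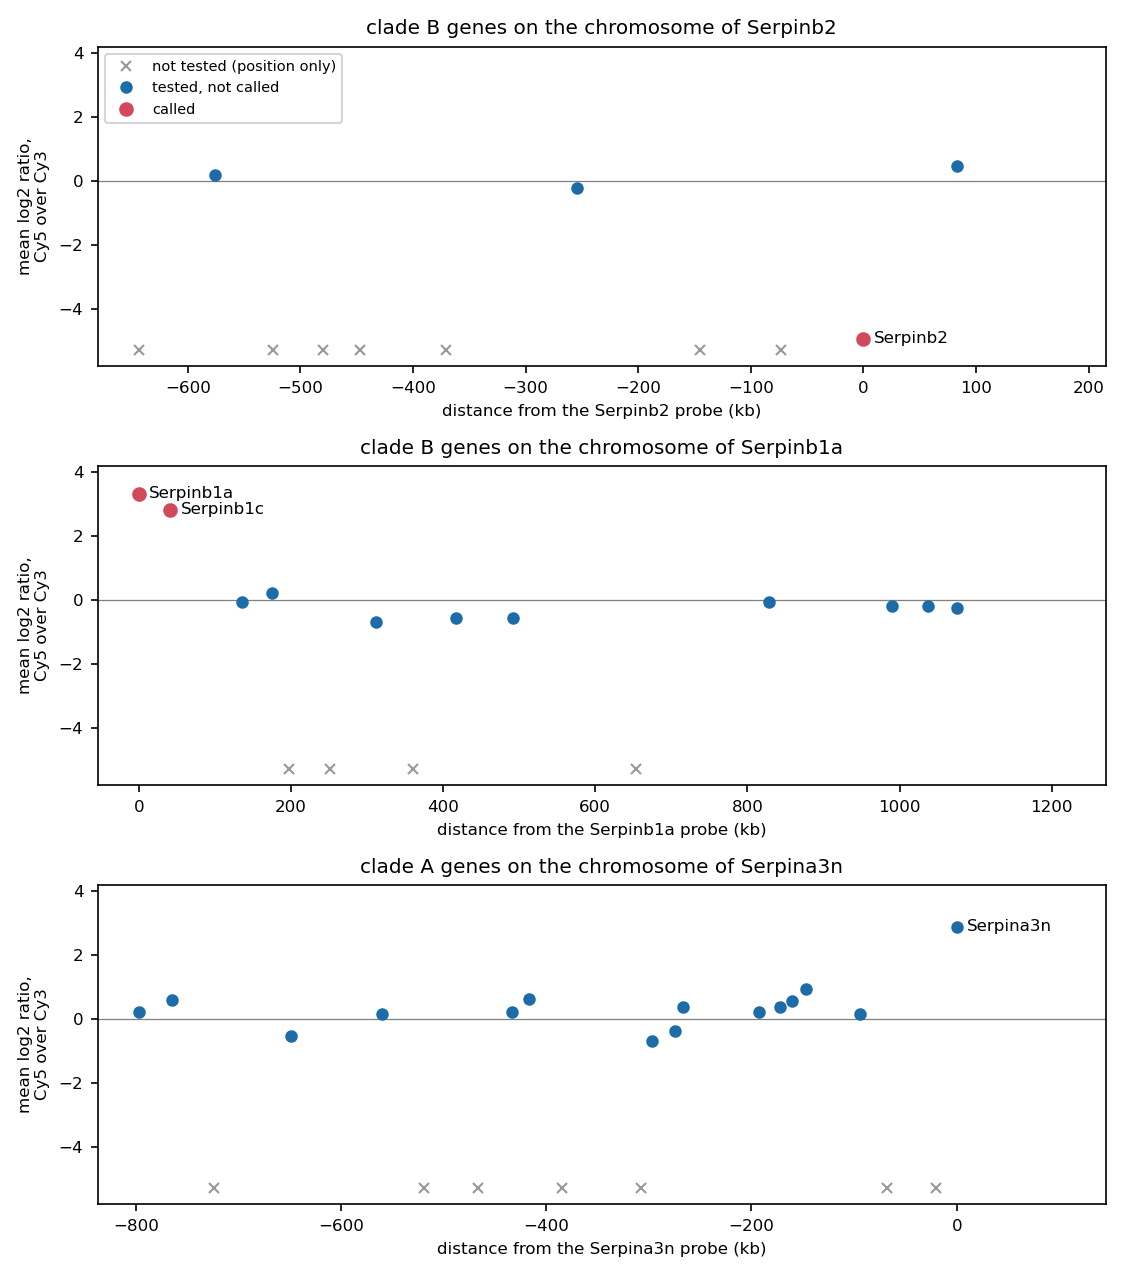
Mean log2 ratio of Cy5 (labelled odontoblast) over Cy3 (labelled osteoblast) against distance in kb from the probe of Serpinb2, Serpinb1a or Serpina3n, for the 11, 15 and 22 serpins of each cluster, with called genes in red and crosses at the foot marking the position of genes too dim to test. Away from the labelled genes the tested neighbours stay between -0.69 and 0.93.

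Serine proteases and cathepsins, groups in which serpins bind some members but not all, were described in the same fit. Of 30 serine proteases, 25 were tested and 0 called by limma, against 2.15% of all genes, with 9 positive and 16 negative means and a median of -0.16. F10, the gene of clotting factor X, was among the brighter ones, at -0.80 ± 0.32 (SD, n = 4) and adjusted p = 0.131. Of 8 cathepsins, lysosomal proteases some of which clade B serpins inhibit, 3 were called, all higher in Cy5, against 1.28% of all genes. Ctss was at 2.65 ± 0.75, Ctsh at 2.09 ± 0.67 and Ctsd at 1.33 ± 0.26 (SD, n = 4), with adjusted p of 0.0315, 0.0436 and 0.0415. Ctss was bright enough to test through Cy5 alone, since its Cy3 signal was well above background on 1 array. The size of its ratio therefore depends on a Cy3 signal near background, and the demand for both channels on all arrays left it untested. Each of the 3 calls was lost with any 1 array left out, with adjusted p of 0.0587 to 0.191, and with the software's processed signals, with adjusted p of 0.0503 for Ctss (whose mean was then 5.35), 0.0680 for Ctsh and 0.0932 for Ctsd. The Ctsd call was also lost with an offset of 10 (adjusted p = 0.0564 by limma) and with the mean over its probes (1.12, adjusted p = 0.0646). Without the filter on dim probes that of Ctsh was lost (adjusted p = 0.0608). Ctsb and Ctsl lay on the other side, at -1.88 and -1.46, with adjusted p of 0.0778 and 0.117. Scale normalization between arrays brought a call for Ctsb (-1.80, adjusted p = 0.0415) and ended that of Ctsh (2.15, adjusted p = 0.0570). Ctss is known mainly from macrophages and other antigen-presenting cells, whose marker signals are given beside Serpinb2, and their part in its ratio was not tested.

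Across the 37 tested serpins the spread was otherwise close to that of the array. The median size of the log2 ratio was 0.39, against 0.34 for all genes, and 20 serpins had a mean under 0.5 in size. One sign on every array was kept by 13 serpins, or 35.1%, against 31.4% of all genes. Channels that did not overlap were found in 9, or 24.3%, against 14.4% of all genes: Serpinb2, Serpinb1a, Serpinb1c, Serpine2, Serping1, Serpinb8, Serpina3a, Serpina3h and Serpina9. At an unadjusted p under 0.05 there were 10 serpins, and 21.2% of all genes reached that level. The 21 serpins not tested were 7 of clade A, 11 of clade B and 1 each of clades D, F and I, and none was well above background in 1 channel on more than 2 arrays.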

How the data were processed

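Per the labels, 250 ng of cDNA was labelled per RNA. Per the file headers, the authors' files came from Agilent Feature Extraction 10.7.3.1 and hold mean spot and median background intensity for both channels, with outlier and background flags, in the deposited files as 0 or 1. A deposited value table holds log10 ratios. All of its 55249 single-spot probes lay within 0.0001 (log2) of the scanner's log10 ratio of Cy5 over Cy3, and its columns had a median of 0, so scale and direction are known and no further centring was found. The authors' later steps are not given in the sources used here.

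Intensities were corrected with normexp (offset 50) and normalized by loess in limma 3.58.1 under R 4.3.3, with control spots at weight 0. Outlier spots (949, of which 7 were serpin spots) were dropped, except from the deposited value table, and 0 were saturated. Probes well above background in 1 channel on at least 3 of 4 arrays were kept, 44239 of 55681. The brightest probe stood for a gene. lmFit and eBayes tested the mean ratio against 0, two-sided, with Benjamini-Hochberg adjustment over 37360 features. Channel signals followed Aquantile scaling. Symbols other than the serpins' came by accession from RefSeq (GRCm38.p6, names only). Of the kept serpin probes, 3 (Serpina1d, Serpina3f and Serpinb9f) carry an accession of another serpin as well. Sequences and mm9 positions are those of the array files. The number of arrays limits the precision. The fit was tested on simulated data. Values on every array are given for called serpins, for those of 1 sign with a mean of at least 1 in size, and for the 8 brightest, apart from 1 tested gene that is not reported here, and others by range. Serpins and protease genes named beyond that rule were chosen after their values were seen. The members and lists were chosen with earlier results of these data known. Alternatives changed the background correction, normalization, signal source, filter, probe summary and eBayes setting and left out each array.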

Additional observations from a re-analysis of the deposited data

Results flagged for a closer look

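In 36 serpins measured on all 4 arrays, Dixon's gap test found 2 in which 1 array stood apart, and chance gives about 1 in 20. Serpina3j had a log2 ratio of 0.36 on array 1, against 0.08 to 0.13 on the others. Serpinb6b had -0.63 on array 2, against 0.06 to 0.15 on the others.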

How the results depend on the processing

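The calls of Serpinb2, Serpinb1a and Serpinb1c held together with the software's processed signals, an offset of 10, the value table, the mean over probes and a trended robust eBayes. The value table holds the same software's ratios, so it and the processed signals are not separate checks. Median centring called 6 serpins (5 higher in Cy5, adding Serpina3n, Serpine2 and Serpinb8) and 1419 genes (1177 higher in Cy5) in place of 424 (253 and 171). Cy5 then held 83% of calls in place of 60%. Scale normalization, no filter on dim probes and a demand for both channels on all arrays each called 1 serpin higher in Cy5, and the first 2 lost Serpinb1c (adjusted p = 0.0683 and 0.0644), while the third did not test it. Processed signals and the value table each called 273 genes (167 higher in Cy5, 106 in Cy3). Leaving out 1 array called 0 to 3 serpins (0 to 2 in Cy5, 0 to 1 in Cy3) and 0 to 181 genes (0 to 104 in Cy5, 0 to 77 in Cy3): without arrays 1 and 2 there were 0 of each, without array 3 181 genes and 3 serpins, and without array 4 31 genes and 1 serpin. Signs turned for Serpinf1 with median centring (0.56), for Serpina6 without array 2 (-0.043, in a range up to 0.95 over the arrays left out) and for Plau without arrays 2 and 3 (-0.38 and -0.84, in a range up to 1.23). Fewer arrays give fewer degrees of freedom, and for the other changes the cause was not tested. The block on slide was not run, since there was 1 slide. No further paired analysis was run, because all arrays form 1 group and each ratio already pairs its RNAs. The test of the mean ratio against 0 is thus itself paired. Dim signal limits the 21 untested serpins.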
